A study of Mus musculus with 6 samples.

Results

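The S100 genes encode small calcium-binding proteins, and 10 of them were followed here in basal keratinocytes of the mouse ear, namely S100a3, S100a4, S100a6, S100a8, S100a9, S100a10, S100a11, S100a13, S100a14 and S100a16. These members were chosen by gene symbol, with earlier results on the same libraries known, among them the difference of S100a8 and S100a9 between females and intact males. They are 10 of the 49671 genes in the table. All 10 were among the 15362 genes with enough reads to be tested, but S100a8 and S100a9 passed that filter only through the female libraries. The table holds 7 further S100 genes. Of these S100a1 was tested, and S100a2, S100a5, S100a7a, S100b, S100g and S100z had at most 11 reads in any library and were not.

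S100 proteins bind calcium through EF-hand loops and mostly act as dimers, which change shape on binding calcium and then grip partner proteins such as annexins and myosin. Several are also released from cells and signal through receptors such as RAGE (Ager) and TLR4. Most S100 genes lie in the epidermal differentiation complex, a gene cluster that also holds the genes of the cornified layer of the skin. S100a8 and S100a9 form calprotectin, a metal-binding antimicrobial complex that fills neutrophils and that keratinocytes make in wounded, inflamed or hyperproliferative skin.

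The study bears on sexual dimorphism in epidermal stem cells and compared castrated male, female and intact male mice of the outbred CD1 stock, with 2 RNA-seq libraries per group and no age given in the labels. Each library held polyA RNA of 100000 sorted ear epidermal cells pooled from 2 mice of 1 litter. The sort kept live cells that stained for integrin alpha 6 and left out CD34-positive cells of the hair follicle bulge. The sample labels do not name the litter of each pool, so differences between litters cannot be separated from differences between groups. Every p-value measures the spread between pools of mice. Libraries held 8412487 to 9648154 reads, and 1 read was worth 0.102 to 0.128 CPM (reads relative to library size after TMM scaling). A count of 0 allows up to about 3 reads at 95% confidence, and 3 reads were worth 0.306 to 0.384 CPM. The markers of basal keratinocytes were abundant, with Krt5 and Krt14 among them, and summed to between 40592 and 47823 CPM over 6 genes. In bulk RNA, fewer cells of a type and less RNA per cell cannot be told apart.

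S100a8 and S100a9 were near the detection limit in castrated and intact males and abundant in females. S100a8 had 9 and 10 reads in castrated males (1.03 and 1.14 CPM), 1705 and 4848 reads in females (174 and 620 CPM), and 5 and 3 reads in intact males (0.53 and 0.35 CPM). Every female library lay far above every male library, castrated or intact. S100a9 had 3 and 2 reads in castrated males (0.34 and 0.23 CPM), 750 and 2582 reads in females (76.6 and 330 CPM), and 6 and 0 reads in intact males (0.64 and 0 CPM). Its groups separated in the same way, and replicate 2 of the females was the higher library for both genes.

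**Figure D1:**
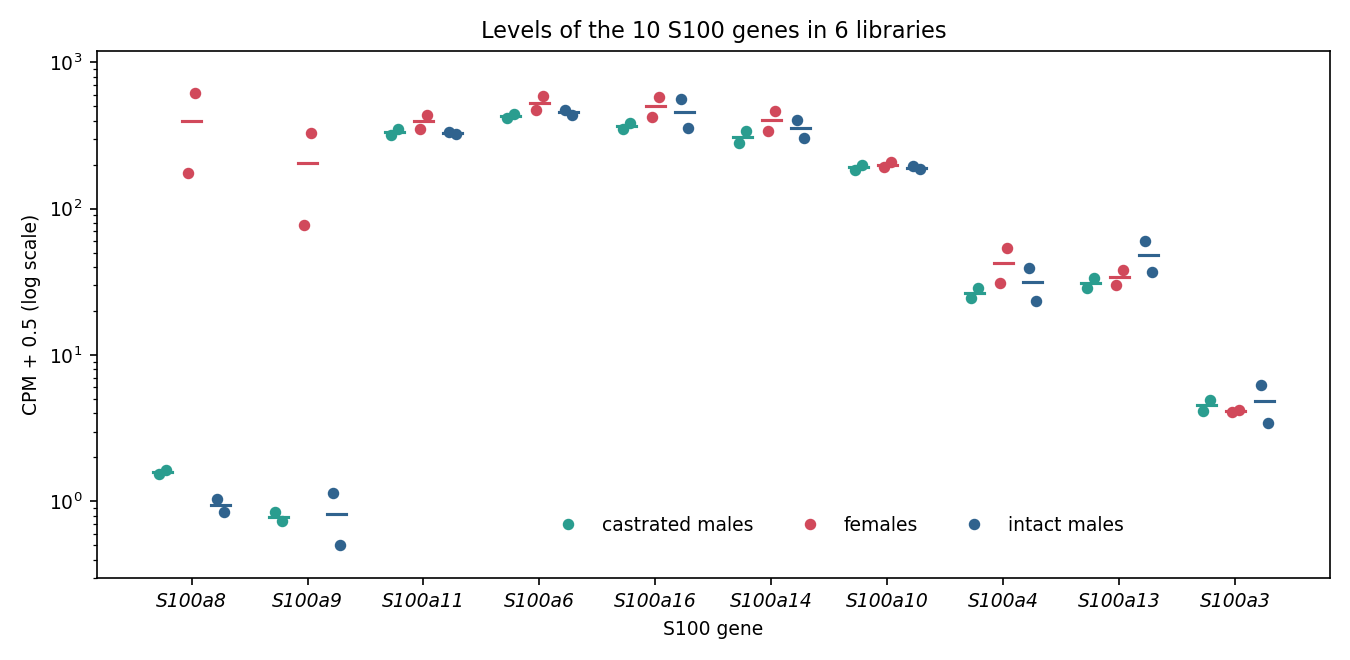
Level of each S100 gene in every library, as CPM + 0.5 on a log axis, with castrated males left, females in the middle and intact males right; points are libraries and bars are the means of 2. S100a8 and S100a9 were at 76.6 CPM or more in females and at 1.14 CPM or less in all male libraries, while the points of each of the other 8 genes lie close together.

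On the log2(CPM + 0.5) scale the difference of females minus intact males was 8.45 ± 0.49 for S100a8 (SE, 95% interval 7.34 to 9.57) and 7.72 ± 0.63 for S100a9 (6.29 to 9.16). These values are given without a test, because the genes were picked with them known. The added 0.5 shrinks such differences. As a plain ratio of reads, corrected for library size, S100a8 was 832-fold higher in females than in intact males (95% counting interval 422 to 1929, 6553 against 8 reads). S100a9 was 564-fold higher (259 to 1539, 3332 against 6 reads). The intervals cover counting error only.

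Castrated males stood close to intact males and far from females. Castrated males minus females gave -7.70 ± 0.49 for S100a8 and -7.67 ± 0.63 for S100a9 on the log2(CPM + 0.5) scale. Against intact males, the 19 S100a8 reads of the castrated males compare with 8 reads, a ratio of 2.42 with a counting interval of 1.01 to 6.40. The castrated and intact libraries did not overlap, as for 35.41% of all genes tested, but all 4 held 10 reads or fewer. The fitted difference was 0.75 ± 0.49, with an error that is shared with the females, whose pools lay 1.83 apart, so it does not measure the spread of the 4 male pools and nothing is read from it. No fold is given for S100a9, which had 5 reads in castrated and 6 in intact males.

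S100a8 and S100a9 made up very different parts of the RNA of the 10 genes. Together they gave 0.0852% and 0.0767% of the reads of all 10 in castrated males, 12.0% and 28.6% in females, and 0.0566% and 0.0211% in intact males. Exact Clopper-Pearson 95% intervals were 11.6% to 12.5% and 28.0% to 29.1% in the female libraries, so these differed from each other beyond counting error. The ratio of S100a8 to S100a9 reads was 2.27 and 1.88 in the female libraries, between which S100a8 differed 3.56-fold and S100a9 4.31-fold. The other 8 genes summed to 1603 and 1785 CPM in castrated males, 1835 and 2376 CPM in females, and 2074 and 1665 CPM in intact males. Intact males overlapped both other groups on this sum, and females lay just above castrated males.

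The promoters of S100a8, S100a9 and S100a11 are shown because the first pair differed together between groups and S100a11, the most abundant member per length in the male groups, was not called. Each is the RefSeq window of 250 bases before to 50 bases after the gene start in GRCm38.p6, 5′ to 3′ on the gene's strand, at chr3:90668821-90669120 (+) for S100a8, chr3:90695672-90695971 (-) for S100a9 and chr3:93520246-93520545 (+) for S100a11. Capitals mark matches to a TATA box (TATAAA), a C/EBP motif (TTNNGNAA, searched on both strands) or an AP-1 motif (TGANTCA, both strands).
S100a8: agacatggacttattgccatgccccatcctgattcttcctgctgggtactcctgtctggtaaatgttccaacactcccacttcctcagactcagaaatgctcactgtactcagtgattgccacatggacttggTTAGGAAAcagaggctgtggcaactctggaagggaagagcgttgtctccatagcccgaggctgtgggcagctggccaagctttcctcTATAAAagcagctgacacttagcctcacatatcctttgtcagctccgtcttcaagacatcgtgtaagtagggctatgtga
S100a9: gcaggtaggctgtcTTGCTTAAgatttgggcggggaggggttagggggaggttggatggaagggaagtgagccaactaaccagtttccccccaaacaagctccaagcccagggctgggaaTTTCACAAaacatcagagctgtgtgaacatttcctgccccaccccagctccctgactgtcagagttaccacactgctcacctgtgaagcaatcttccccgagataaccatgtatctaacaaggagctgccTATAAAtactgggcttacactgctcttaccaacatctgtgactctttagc
S100a11: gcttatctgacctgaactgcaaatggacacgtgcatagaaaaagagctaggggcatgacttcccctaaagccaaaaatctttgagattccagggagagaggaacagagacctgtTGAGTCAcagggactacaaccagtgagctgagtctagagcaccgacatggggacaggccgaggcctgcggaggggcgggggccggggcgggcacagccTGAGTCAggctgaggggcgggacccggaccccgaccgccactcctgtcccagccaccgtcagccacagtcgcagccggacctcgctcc
The S100a8 window held TATAAA at positions 221 to 226 and TTAGGAAA, a C/EBP match, at 134 to 141, counted from 1 at the 5′ end. The S100a9 window held TATAAA at 251 to 256 and C/EBP matches on the other strand at 15 to 22 (TTGCTTAA) and 121 to 128 (TTTCACAA). The letters TATAAA begin at -30 from the gene start in the S100a8 window but at 0, the gene start itself, in the S100a9 window. The matches are therefore not alike in place, and whether either acts as a TATA box was not tested. The S100a11 window held AP-1 matches (TGAGTCA) at 115 to 121 and 213 to 219, with neither TATAAA nor a C/EBP match in these letters. Among all 32851 promoter windows of this length, 13.6% held TATAAA, 40.7% the C/EBP motif and 7.81% the AP-1 motif. No motif spelling overlapped another in the capitals shown. A STAT motif (TTCNNNGAA) and the steroid receptor half-site AGAACA, found in 8.30% and 19.0% of all windows, had no match in these 3 windows. RefSeq windows were at hand for 8 of the 10 genes, with S100a10 and S100a14 the others. Among the windows not shown, that of S100a4 held TATAAA beginning at -31, and a window of S100a3 held it at -52. Other windows of S100a3 held C/EBP matches (TTACTGAA and TTGGGGAA), and a window of S100a16 held an AP-1 match (TGAATCA). None of these genes was called, so TATAAA and C/EBP matches were not particular to S100a8 and S100a9.

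None of the other 8 genes was called in any comparison. Across all genes tested, limma with Benjamini-Hochberg adjustment called 6.11% in females minus intact males, 0.0391% in castrated minus intact males and 1.72% in castrated males minus females. Of the 10 S100 genes, 2, 0 and 2 were called in these comparisons, and the called ones were S100a8 and S100a9. Because those 2 were chosen with their difference known, nothing is read from their count. In castrated minus intact males, where limma called none of the 10, 1 had an unadjusted limma p below 0.05, against 907 of all 15362 genes. Over all 15362 genes, 3828 had such a p in females minus intact males and 3339 in castrated males minus females. The median difference of the 8 other genes was 0.16 in females minus intact males, -0.13 in castrated minus intact males and -0.26 in castrated males minus females, beside medians of -0.01, 0.00 and 0.02 over all genes. Their limma adjusted p was 0.257 to 0.800, at least 0.813, and 0.259 to 0.854 in that order of comparisons.

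**Figure D2:**
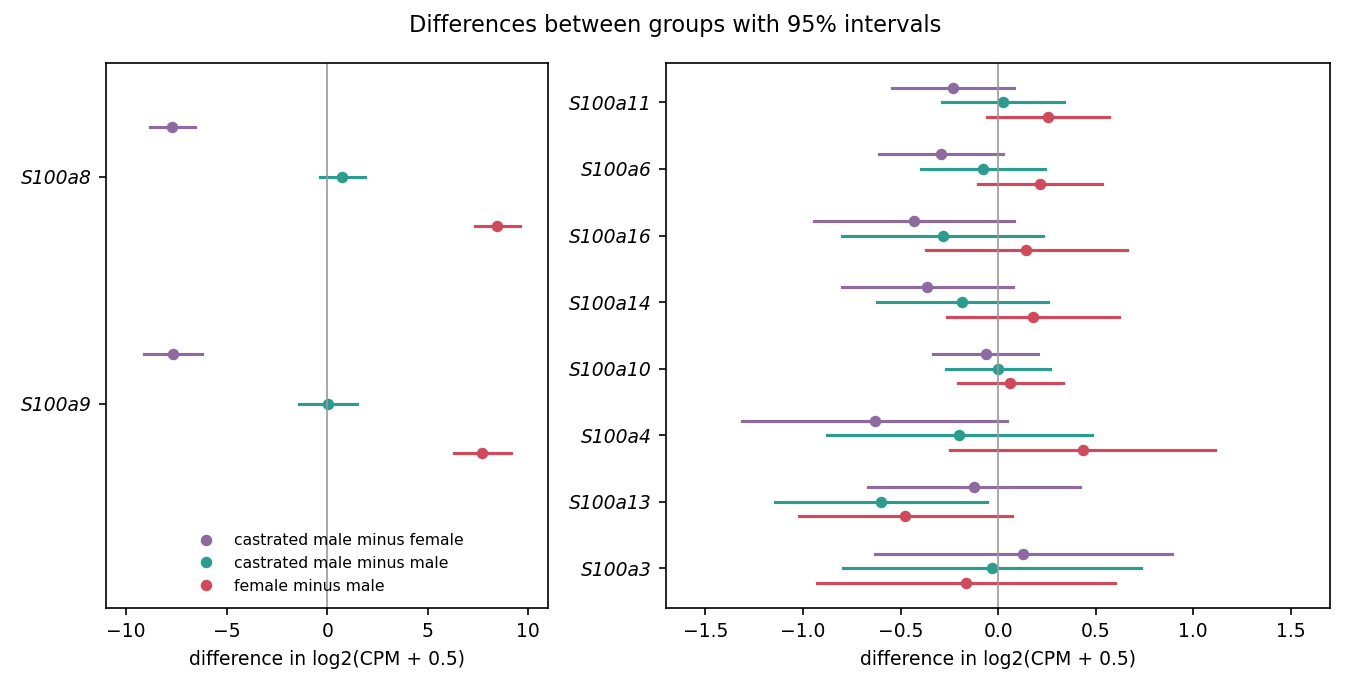
Differences between groups in log2(CPM + 0.5) for each S100 gene, with the estimate as a point and its 95% limma interval as a line; the left panel, with a wider axis, holds S100a8 and S100a9. Intervals of the other 8 genes include 0 in all comparisons but S100a13 in castrated minus intact males (-1.14 to -0.06).

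S100a11 and S100a10 join annexins at membranes, S100a11 with annexin A1 and S100a10 with annexin A2, and neither was called in any comparison. S100a11 had 318 and 350 CPM in castrated males, 351 and 438 CPM in females, and 334 and 322 CPM in intact males. Both female libraries lay above all male libraries, but female replicate 1 (350.9 CPM) was barely above castrated replicate 2 (350.1 CPM). The male groups overlapped. Of all genes tested, 53.81% did not overlap between females and intact males, and 57.54% between castrated males and females. The difference of S100a11 was 0.26 ± 0.14 in females minus intact males (95% interval -0.05 to 0.57) and 0.03 ± 0.14 in castrated minus intact males. S100a10 had 182 and 199 CPM in castrated males, 191 and 208 CPM in females, and 196 and 185 CPM in intact males, and all groups overlapped. Its intervals were the narrowest of the 10, from -0.21 to 0.33 in females minus intact males and from -0.27 to 0.27 in castrated minus intact males.

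S100a6 (calcyclin), which binds the Siah1-interacting protein Cacybp, had 417 and 444 CPM in castrated males, 471 and 590 CPM in females, and 473 and 436 CPM in intact males. Its female minus intact male difference of 0.21 ± 0.14 (-0.10 to 0.53) did not pass the test. S100a14 and S100a16 are members of epithelial cells. S100a14 had 280 and 341 CPM in castrated males, 338 and 466 CPM in females, and 403 and 305 CPM in intact males. S100a16 had 349 and 385 CPM in castrated males, 420 and 580 CPM in females, and 564 and 354 CPM in intact males. For both genes the intact males overlapped the females, and castrated males had the lowest mean. Castrated males minus females gave -0.36 ± 0.19 for S100a14 and -0.43 ± 0.23 for S100a16, with limma adjusted p of 0.312 and 0.305.

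S100a13, which takes part in the export of FGF1 and interleukin 1 alpha, had its highest mean in intact males. It had 28.0 and 33.2 CPM in castrated males, 29.5 and 37.6 CPM in females, and 59.7 and 36.2 CPM in intact males. The castrated and intact groups did not overlap, as for 35.41% of all genes tested, but intact male replicate 2 lay close to the other groups. The difference of castrated minus intact males was -0.60 ± 0.24 (95% interval -1.14 to -0.06), with an unadjusted p of 0.0344 and an adjusted p of 0.813 over all genes in limma. It was -0.24 without intact male replicate 1 and -0.96 without intact male replicate 2.

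S100a4 (metastasin), which binds nonmuscle myosin, had 23.9 and 28.1 CPM in castrated males, 30.6 and 53.3 CPM in females, and 38.7 and 23.0 CPM in intact males. Its difference of 0.43 ± 0.30 in females minus intact males had the highest upper limit among the 8 genes (95% interval -0.25 to 1.11). This difference ran from 0.04 to 0.83 without each library in turn. The level is uncertain, because 302 of its 584 exonic bases (51.7%) also lie in exons of Gm42674, a gene on the same strand. Gm42674 had 96.6% to 103% as many reads as S100a4 in each library, and which gene those reads came from cannot be told apart. S100a3, a protein of the hair cuticle, was the lowest of the 8, with 3.65 and 4.45 CPM in castrated males, 3.57 and 3.71 CPM in females, and 5.77 and 2.93 CPM in intact males.

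Levels of different genes were compared as CPM per kb of exon. S100a11 led in castrated males (623 and 685 CPM per kb) and in intact males (653 and 631), above every other member in each of these libraries. S100a6 followed with 305 and 325 CPM per kb in castrated males and 346 and 319 in intact males. S100a16 (216 and 238 in castrated males, 349 and 219 in intact males), S100a14 (162 and 197, then 233 and 177) and S100a10 (150 and 165, then 162 and 153) came next, and neighbours in that order overlapped in at least 1 of the groups. S100a4 and S100a13 lay lower, at 39.2 to 83.5 CPM per kb in both groups, and could not be ranked against each other. In females S100a8 had 251 and 893 CPM per kb and S100a9 147 and 632, beside 687 and 857 for S100a11 and 345 and 432 for S100a6. S100a11 lay above S100a9 and S100a6 without overlap, and S100a8 above S100a9 within each female library, while S100a8 overlapped both S100a11 and S100a6 over the pools.

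The libraries of a group differed in the same direction for most members. In females replicate 2 was higher than replicate 1 for all 10 genes, by 2.10 for S100a9, 1.83 for S100a8 and 0.79 for S100a4 on the log2(CPM + 0.5) scale, while the median over all tested genes was -0.03 for replicate 1 minus replicate 2. In intact males replicate 1 was higher for all 10, and the difference was above 0.5 for 5 of them, against 10.26% of all genes tested. S100a16 (0.67), S100a13 (0.71), S100a4 (0.74) and S100a3 (0.87) were among these, with S100a9 at 6 and 0 reads. In castrated males 9 of 10 were higher in replicate 2, by 0.28 at most. S100a1, which is no member, followed the same pattern in females (-0.52) and intact males (1.09). What moved these genes together within a group was not tested.

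**Figure D3:**
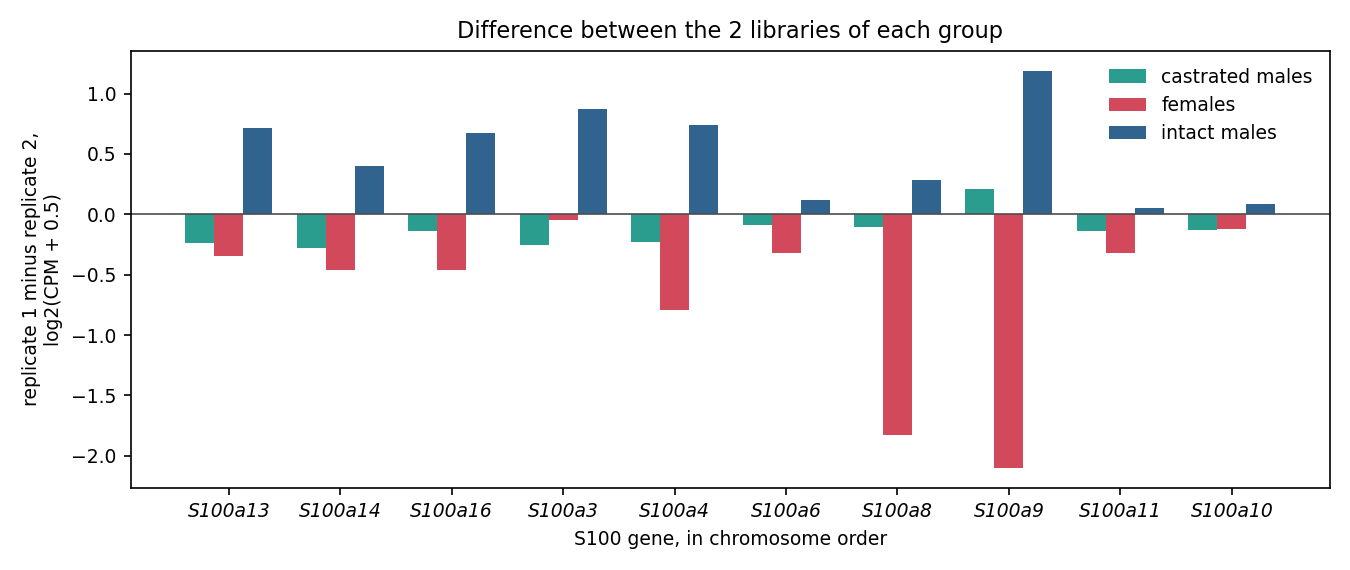
Replicate 1 minus replicate 2 in log2(CPM + 0.5) for each S100 gene in chromosome order, with castrated males, females and intact males as bars from left to right. All 10 bars are below 0 in females and above 0 in intact males.

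All 10 genes lie on mouse chromosome 3 (GRCm38, GENCODE vM21). The first 8 of them along the chromosome sit in a block of 181.29 kb, from S100a13 (chr3:90514435-90524581) to S100a9 (chr3:90692632-90695721), and S100a11 and S100a10 follow 2824.77 kb further on. S100a9 is on the minus strand and the other 9 are on the plus strand. In order along the block, S100a14 lies at chr3:90526856-90528837, S100a16 at chr3:90537254-90543151, S100a3 at chr3:90560578-90602702, S100a4 at chr3:90603771-90606045, S100a6 at chr3:90612882-90624181 and S100a8 at chr3:90668978-90670035. S100a11 lies at chr3:93520488-93526287 and S100a10 at chr3:93555080-93564643. Within the block 9 genes were tested, the 8 members and Gm42674. S100a6 ends 44.796 kb before S100a8 and was not called. S100a7a between them had at most 4 reads in any library. Pglyrp4, 57.9 kb from the start of S100a8 on its other side, differed by 0.35 in females minus intact males with a limma adjusted p of 0.759.

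Between S100a13 and S100a10, across 3050.2 kb, 45 tested genes are not members. In females minus intact males 11 of them were called higher and 2 lower, where 6.11% of all genes tested were called. Their median difference was 0.70, beside -0.01 over all genes. In castrated minus intact males limma called none, and 19 of the 45 had an unadjusted p below 0.05, against 907 of all 15362 genes. The median of the 45 there was 0.72. In castrated males minus females 2 were called higher and 6 lower, where 1.72% of all genes were called. The small proline-rich Sprr2 genes, which encode cross-linked precursors of the cornified envelope, gave 5 of these calls from 8 tested genes. Sprr2d averaged 1.08 ± 0.40 CPM in castrated males, 109.5 ± 122 CPM in females and 3.71 ± 4.58 CPM in intact males (SD, n = 2 each). Sprr2 genes are near-identical copies, so their reads may be split between them or counted for several of them. Sprr2a1 and Sprr2a2, both among the called, overlap on the same strand. They had near-equal reads, 425 and 813 against 448 and 834 in females, so both calls may rest on the same reads. The 13 calls in females minus intact males were lost without female replicate 2, the library with the most S100a8 and S100a9 reads. Most calls over all genes were lost in that fit as well. Fewer calls remained without either castrated library or intact male replicate 2, both here and over all genes. The female minus intact male difference of Sprr2d ran from 3.15 to 6.19 without each library in turn. The 8 calls in castrated males minus females numbered 1 without female replicate 2 or castrated replicate 1, 3 without castrated replicate 2, 12 without intact male replicate 1, and 13 without female replicate 1 or intact male replicate 2.

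**Figure D4:**
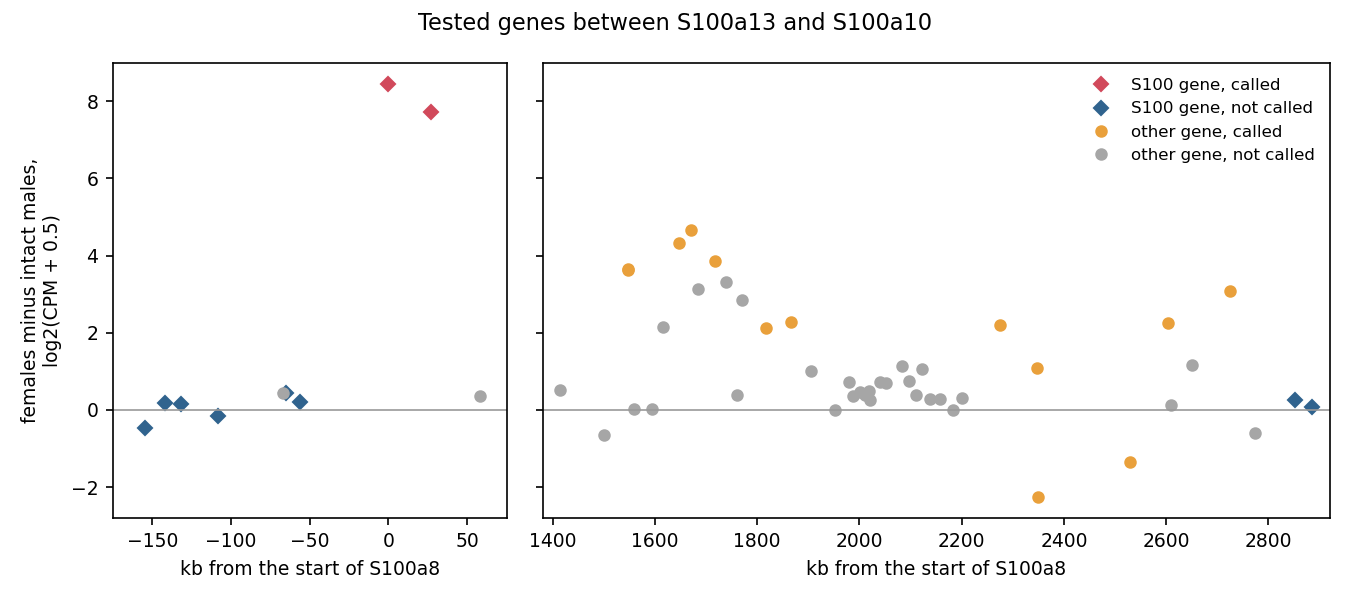
Difference of females minus intact males in log2(CPM + 0.5) for each tested gene between S100a13 and S100a10, by distance from the start of S100a8 in kb; the panels have different distance scales and the stretch left out between them holds no tested gene. S100a8 and S100a9 stand at 8.45 and 7.72, and their closest tested neighbours lie between -0.48 and 0.43.

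Rptn and Flg were higher and Flg2 lower in females than in intact males, as 3 of 5 tested genes of the S100-fused type, which carry an S100 domain at the start of a long repeat protein of the upper epidermis. Rptn (repetin) had 2 and 1 reads in castrated males, 28 and 92 reads in females, and 6 and 0 reads in intact males, a female minus intact male difference of 3.09 ± 0.63 (limma adjusted p = 0.0293). Flg2 (filaggrin 2) had 18.6 and 20.3 CPM in castrated males, 4.08 and 2.17 CPM in females, and 9.61 and 7.38 CPM in intact males. Females were thus lowest for Flg2 and highest for Rptn, whose castrated and intact males overlapped near the detection limit. Flg (filaggrin) had 25.1 and 55.4 CPM in castrated males, 43.7 and 74.3 CPM in females, and 22.0 and 5.98 CPM in intact males. In females minus intact males 6.11% of all genes tested were called. Flg2 was also higher and Rptn lower in castrated males than in females, where 1.72% of all genes were called. Between castrated and intact males limma called none of the 5, and 2 had an unadjusted p below 0.05, against 907 of all 15362 genes. None of these calls remained without female replicate 2 or either castrated library. Tchh, Tchhl1, Crnn and Hrnr made up the rest of the 7 listed.

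Among 7 receptors to which S100 proteins bind, 6 were tested and limma called none in any comparison. An unadjusted p below 0.05 was reached by 3 in females minus intact males, 0 in castrated minus intact males and 1 in castrated males minus females. Of all 15362 genes, 3828, 907 and 3339 reached it in that order of comparisons. Bsg (basigin) was abundant, with 500 and 571 CPM in castrated males, 541 and 652 CPM in females, and 566 and 633 CPM in intact males. Ager (RAGE) had 3.53 and 2.51 CPM in castrated males, 3.16 and 2.17 CPM in females, and 3.52 and 3.28 CPM in intact males, and Tlr4 had at most 2 reads in a library. Of 11 binding partners, 10 were tested and 1 was called. Anxa6 (annexin A6) had 23.2 and 30.1 CPM in castrated males, 15.5 and 19.6 CPM in females, and 34.7 and 49.2 CPM in intact males, a female minus intact male difference of -1.22 ± 0.22 (limma adjusted p = 0.022). The call was absent without either female library or intact male replicate 2. In the comparisons with castrated males limma called none of the 10, and 2 had an unadjusted p below 0.05 in each. Anxa1, Anxa2, Cacybp and Myh9, the partners of S100a11, S100a10, S100a6 and S100a4, were not called in any comparison, with female minus intact male differences of 0.37, 0.12, 0.31 and 0.13.

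Of 11 transcription factors known to act on S100a8 and S100a9, 10 were tested, and Nfkbiz, Cebpa, Hif1a and Junb were called higher in females than in intact males. In that comparison 6.11% of all genes were called, and the median difference of the 10 was 0.65, beside -0.01 over all genes. The median of the 10 was also above that of all genes in castrated minus intact males (0.36 beside 0.00). In castrated males minus females it was -0.41, beside 0.02 over all genes. Nfkbiz, which encodes I-kappa-B zeta, had 42.0 and 39.2 CPM in castrated males, 65.1 and 78.0 CPM in females, and 23.9 and 33.2 CPM in intact males. Females minus intact males differed by 1.32 ± 0.18 (limma adjusted p = 0.00905), a call lost only without female replicate 2 among the 6 fits that each leave out 1 library. The calls of Hif1a, Junb and Cebpa remained in 2, 1 and 0 of those 6 fits. Limma called none of the 10 in castrated minus intact males or castrated males minus females, where 3 and 4 had an unadjusted p below 0.05. Cebpb, with 0.35 to 1.37 CPM, was not tested. Of 8 tested receptors for cytokines that induce S100a8 and S100a9, limma called none in any comparison, with 2 at an unadjusted p below 0.05 in each. Of all 15362 genes, 3828 had such a p in females minus intact males, 907 in castrated minus intact males and 3339 in castrated males minus females. Il17rc was the nearest in females minus intact males, with 115 and 130 CPM in castrated males, 152 and 188 CPM in females, and 109 and 124 CPM in intact males (limma adjusted p = 0.0662).

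S100a8 and S100a9 are also the leading transcripts of neutrophils, and markers of other cells were therefore measured beside them. Of 12 neutrophil markers, 2 had enough reads to be tested. Elane, Ngp, Ltf and Retnlg had 0 reads in all 6 libraries, and Ly6g had 1 read in each female library and 0 elsewhere. The 12 summed to 4.33 and 4.91 CPM in castrated males, 6.53 and 14.8 CPM in females, and 5.34 and 5.39 CPM in intact males. Cxcr2, a chemokine receptor, made most of the female excess, with 14 and 26 reads in castrated males, 33 and 92 reads in females, and 9 and 6 reads in intact males. It was called higher in females than in intact males (2.38 ± 0.52, limma adjusted p = 0.0362), and in 1 of the 6 fits that leave out a library.

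**Figure D5:**
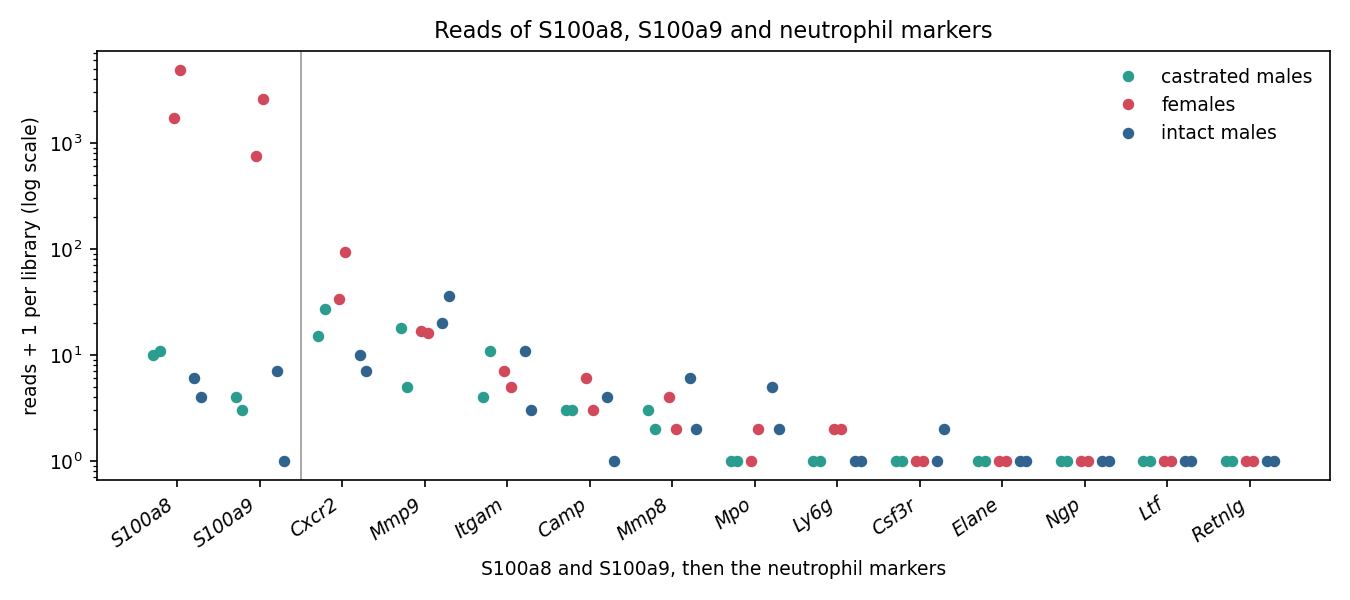
Reads + 1 per library on a log axis for S100a8 and S100a9, left of the line, and 12 neutrophil markers, right of it, with castrated males, females and intact males from left to right within each gene. Cxcr2 reached 92 reads in a female library, and Elane, Ngp, Ltf and Retnlg were at 0 in all libraries.

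Cd74, H2-Aa and H2-Ab1, which serve antigen presentation on MHC class II, were higher in females, as were S100a8 and S100a9. The MHC class II genes were the 3 called of 6 tested on a list of 7 markers of Langerhans and dendritic cells, higher in females than in intact males and lower in castrated males than in females. The 7 genes summed to 400.3 and 465 CPM in castrated males, 1077 and 2337 CPM in females, and 374 and 422 CPM in intact males, with replicate 2 the higher female library. Cd74 had 219 and 257 CPM in castrated males, 602 and 1351 CPM in females, and 208 and 234 CPM in intact males. Cd207 (langerin), the defining marker of Langerhans cells, had 6.84 and 5.02 CPM in castrated males, 5.31 and 6.90 CPM in females, and 6.62 and 8.44 CPM in intact males, and was not called in any comparison, nor were Itgax and Epcam. The Cd207 groups overlapped. The calls of Cd74, H2-Aa and H2-Ab1 in females minus intact males remained in all 6 fits that leave out a library, whereas those in castrated males minus females were absent without either castrated library, and that of H2-Aa also without female replicate 2. None of the 7 markers was at 0 in all libraries. The part of these cells in the S100 values was not tested.

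Of 7 suprabasal keratinocyte markers, Krt1 and Krtdap were called higher in females than in intact males, and the 7 summed to 1171 and 1243 CPM in castrated males, 1196 and 1524 CPM in females, and 946 and 730 CPM in intact males. Castrated males and females overlapped on this sum, and both lay above the intact males. The Krt1 call was absent without female replicate 2, and the Krtdap call remained in 2 of the 6 fits that leave out a library. Limma called no marker of macrophages, T cells, fibroblasts, bulge or basal keratinocytes in any comparison. At an unadjusted limma p below 0.05, 2 basal markers differed in females minus intact males and 2 in castrated males minus females, 1 bulge marker in females minus intact males and 1 fibroblast marker in castrated minus intact males. Of all 15362 genes, 3828 had such a p in females minus intact males, 907 in castrated minus intact males and 3339 in castrated males minus females. Krt32 of the hair shaft and Mitf of melanocytes were called lower in females than in intact males, with 7.04 and 6.90 CPM of Krt32 in females against 17.2 and 13.4 CPM in intact males. The Krt32 and Mitf calls remained in 1 and 2 of the 6 fits that leave out a library. Whether any of these cells had a part in the S100 values was not tested.

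The genes whose profile over the 6 libraries was most like the mean of S100a8 and S100a9 were found by the root mean square difference of log2(CPM + 0.5) values, each centred on the gene's own mean, among the 11526 tested genes whose mean reached 5 CPM. S100a8 and S100a9 differed by 0.444 on this measure. Xist was next (0.770), followed by Gm15845 (0.975), BC100530 (1.01), BC117090 (1.19), 2610528A11Rik (1.27) and Tsix (1.30). Xist, the noncoding RNA of the inactive X chromosome, had 0.91 and 0.57 CPM in castrated males, 208 and 152 CPM in females, and 0.32 and 0.35 CPM in intact males, and Tsix is its antisense partner, whose reads cannot be told apart from it without strand. Unlike Xist, Gm15845 and BC100530 shared the higher value in female replicate 2. BC100530 had 3.08 and 7.42 CPM in castrated males, 178 and 479 CPM in females, and 3.42 and 3.75 CPM in intact males.

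Without each library in turn, the difference of females minus intact males ranged from 7.54 to 9.37 for S100a8 and from 6.67 to 8.77 for S100a9, given as a description of genes picked for this difference. With precision weights in limma (voom), which give less weight to libraries with few reads of a gene, S100a8 alone remained called in females minus intact males and neither was called in castrated males minus females.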

How the data were processed

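The submitters' processing notes name STAR 2.7.5a, HTSeq 0.11.1, FastQC and Picard, and the genome builds mm10 and GRCm38. Scaling, annotation and strand setting were not given in the sources used here. Values as deposited by the authors are scores: whole numbers that sum to about 20000000 in each library and lie, after rounding, on multiples of 1 step per library, between 2.07 and 2.38. Within 0.5 of such a multiple lay 100.0% of the values, against 42.2% to 48.2% of arbitrary whole numbers. A smaller step, 1.73 to 1.93, lies as near to all values, because the reciprocals of both steps sum to 1. The larger was taken: all of its first 100 multiples occur as scores in every library, against 72% to 93% of those of the smaller step. Division by it gave the reads used here. Because the deposited columns are rounded scores, no count model was fitted.

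Reads were scaled with TMM factors (0.930 to 1.03). A gene was tested when 2 or more libraries reached 1.16 CPM (worth 10 reads at the median depth) and its reads summed to 15 or more. The fit used limma 3.58.1 under R 4.3.3 on log2(CPM + 0.5), with an intensity trend, 1 mean per group, all 6 libraries in 1 fit and 3 residual degrees of freedom (prior 5.80). Adjusted p-values are Benjamini-Hochberg values over all 15362 genes, two-sided, and a call is an adjusted p below 0.05. Scripts were tested on simulated data. Exon lengths and positions come from GENCODE vM21, promoters from RefSeq GRCm38.p6.

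The members and the gene and marker lists were chosen with earlier results of these data known. All members are named. Genes of lists are named where called or where they are partners or defining markers, and like profiles are the 6 nearest. Intact male replicate 2 has a 3 in its library name, and was numbered by its title. Pools of 1 group differed beyond sampling noise (chi-square per degree of freedom 4.41 to 12.3). Alternatives were size factors, pseudocounts, the filter, precision weights, the replicate block, 2-group fits and leaving out each library.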

Additional observations from a re-analysis of the deposited data

How the results depend on the processing

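The count of S100 genes called, which is no evidence for S100a8 and S100a9 since they were picked for their difference, was 2 in females minus intact males, 0 in castrated minus intact males and 2 in castrated males minus females. It was the same under median-of-ratios or total-count scaling, pseudocounts of 0.1 and 2, no filter, 2-group fits, the replicate block and without each library. With voom weights 1, 0 and 0 were called. No called S100 difference changed sign, and 20 of 420 recomputed S100 differences changed sign, none of them called. Over all genes, the 939 calls in females minus intact males became 88 with no filter on low values and 277 with only the 2 groups fitted, and ranged from 55 to 1737 without 1 library. The 6 calls in castrated minus intact males became 2 with no filter and 11 with a pseudocount of 2, and ranged from 1 to 80 without 1 library. The 264 calls in castrated males minus females became 33 with no filter, 81 with voom weights and 578 with only the 2 groups, and ranged from 32 to 1293 without 1 library. The cause was not tested. Same-numbered libraries deviated together weakly or not at all (correlation of deviations 0.19 between females and castrated males, -0.15 between females and intact males, -0.01 between castrated and intact males). No pairing by number was seen, but these correlations cannot show that there was none. With the replicate block 787, 5 and 158 genes were called in those comparisons. Depth limits S100a8 and S100a9 in males, where 3 reads are worth 0.306 to 0.384 CPM, and 2 libraries per group limit every interval.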
